A study of Mus musculus with 29 samples.

Results

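The 9 genes described here, Cd79a, Cd79b, Blnk, Ms4a1, Cd22, Cd37, Pou2af1, Fcrla and Mzb1, encode parts of the B cell receptor, proteins that relay or restrain its signal, and proteins of B and plasma cells. They are 9 of the 55421 genes counted in whole liver, matched by symbol. They were selected on their CPM, a read count scaled to the size of its library, in each mouse of the 6 groups. Their levels and fold changes in those groups are therefore a description, with no p-value. Livers of old C57BL/6J mice given vehicle, of old C57BL/6J mice given HDM201 and of young C57BL6/N mice given vehicle were profiled by bulk RNA-seq of polyA RNA, in females and in males. HDM201 inhibits MDM2, the protein that holds p53 in check, and was dosed by mouth once a day for 14 days, 10 mg/kg each time, with methylcellulose as vehicle. By the labels the old females were 20 months, the old males 24 months and the young mice 5 months of age. Age and substrain change together and cannot be told apart. The old males were also older than the old females. A sex difference among old mice, or in an effect of age or HDM201, cannot be told apart from that gap. The labels name no engineered allele in any group.

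A B cell senses antigen through a membrane immunoglobulin bound to a pair of signalling chains, the products of Cd79a and Cd79b. When antigen binds, kinases phosphorylate these chains, and the adaptor encoded by Blnk gathers the enzymes that carry the signal on. Surface proteins such as CD22 set the threshold of the response, and the nuclear coactivator encoded by Pou2af1 works with octamer-binding factors on immunoglobulin genes. A B cell that becomes a plasma cell enlarges its endoplasmic reticulum and secretes antibody, and Mzb1 encodes a chaperone of that compartment. The healthy liver holds B cells and plasma cells as a minority among its leukocytes.

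Between 16485900 and 23570458 reads per mouse fell on genes, with a median of 19149235. Counts covered 27 mice, with 5 young vehicle, 4 old vehicle and 5 old HDM201 females and 4, 4 and 5 males in the same order. A further male of each vehicle group, numbered 1 among the old and 5 among the young, had no counts and is described by FPKM, a read density adjusted for transcript length and depth. All 9 genes were rare in liver, with at most 271 counts in a mouse, so single values carry counting error beside the spread between mice. CPM values are scaled by TMM library sizes over the 27 mice.

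**Figure D1:**
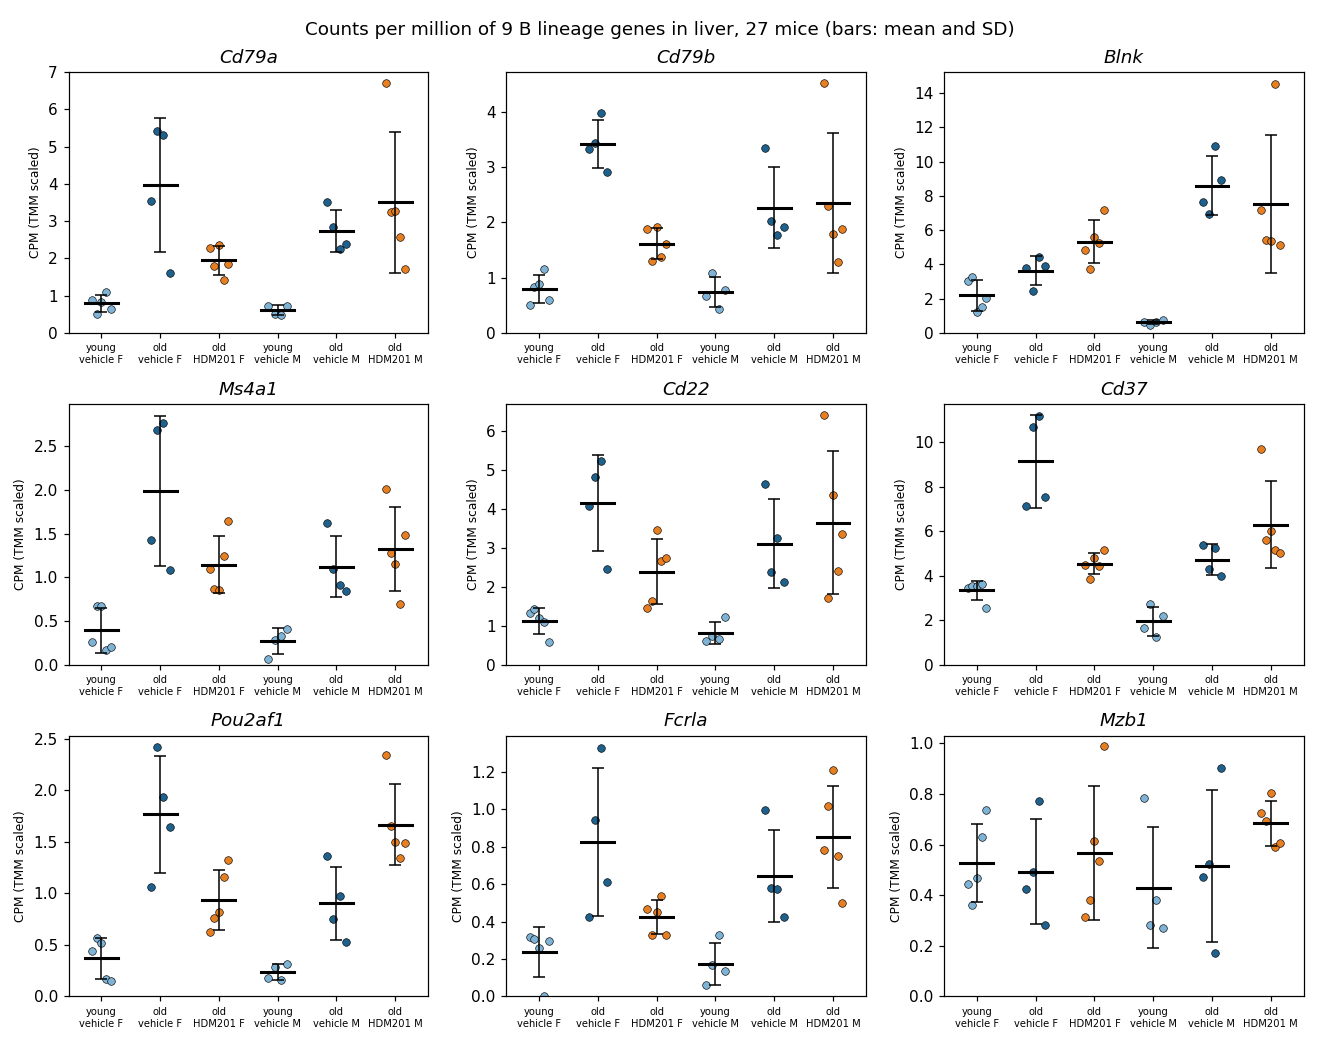
CPM of each of the 9 genes, 1 point per mouse, with the mean and SD of each group on a linear axis from 0. The vehicle groups separate by age for Cd79a, Cd79b, Ms4a1, Cd22, Cd37, Pou2af1 and Fcrla in both sexes and for Blnk in males, and they overlap for Mzb1.

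Cd79a, Cd79b, Ms4a1, Cd22, Cd37, Pou2af1 and Fcrla, 7 of the genes, shared one course in CPM, with every old vehicle liver above every young vehicle liver in both sexes among the 27 mice with counts. By FPKM the groups of the same mice overlapped for Fcrla in females and for Cd22 and Pou2af1 in males, and a male without counts, young vehicle male 5, had more Cd37 than 4 of the 5 old vehicle males. Blnk and Mzb1 did not follow this course in CPM. By FPKM old vehicle livers had more Mzb1 than young ones, without overlap in females and with overlap in males. In females HDM201 livers lay below old vehicle livers on average for the same 7 genes, and without overlap for Cd79b and Cd37. In males the HDM201 and old vehicle groups overlapped in CPM for all 9. In whole liver fewer cells of a type and less RNA per cell cannot be told apart.

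Cd79a (ENSMUSG00000003379.7, GRCm38 chr7:24897381-24902197, plus strand) encodes the alpha signalling chain of the receptor. Its CPM was 0.513, 0.638, 0.831, 0.889 and 1.09 in the young vehicle females and 1.60, 3.55, 5.31 and 5.42 in the old vehicle females. Young vehicle males had 0.489, 0.511, 0.722 and 0.726, and old vehicle males 2.24, 2.39, 2.84 and 3.51. The lowest old female, old vehicle female 4, still exceeded all young females, and the male groups lay further apart. Means went from 0.792 ± 0.224 (SD, n = 5) to 3.97 ± 1.80 (SD, n = 4) in females and from 0.612 ± 0.130 (SD, n = 4) to 2.74 ± 0.569 (SD, n = 4) in males. The fitted log2 fold changes were 2.35 (SE 0.35) and 2.15 (SE 0.26).

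Cd79b (ENSMUSG00000040592.11, chr11:106311341-106314762, minus strand) encodes the partner chain. Young vehicle females measured 0.508, 0.589, 0.822, 0.883 and 1.15, against 2.92, 3.34, 3.45 and 3.98 in old vehicle females. In males the CPM was 0.435, 0.662, 0.771 and 1.08 when young and 1.78, 1.91, 2.03 and 3.35 when old. Old vehicle females formed the tightest old vehicle group of any of the 9 genes, with a coefficient of variation of 12.8%, whereas old vehicle male 2 stood above the other old males. That mouse was the highest old vehicle male for each of the 7 genes of the shared course. The log2 fold change with age was 2.12 (SE 0.23) in females, from a mean of 0.790 ± 0.254 (SD, n = 5) to 3.42 ± 0.437 (SD, n = 4). In males it was 1.62 (SE 0.33), from 0.737 ± 0.268 (SD, n = 4) to 2.27 ± 0.728 (SD, n = 4).

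Blnk (ENSMUSG00000061132.13, chr19:40928927-40994535, minus strand), the adaptor between the receptor chains and downstream enzymes, had the widest sex difference in its age effect among the 9. Its CPM was 1.19, 1.49, 2.01, 3.05 and 3.24 in young vehicle females and 2.46, 3.76, 3.91 and 4.42 in old vehicle females, and 2 young females lay within the old range. Young vehicle males had 0.455, 0.602, 0.652 and 0.771, and old vehicle males 6.96, 7.64, 8.91 and 10.9. No young male reached any young female, and no old male fell to any old female. The order of the sexes thus turned over between the young and the old groups, in which the males were 24 and the females 20 months old. The mean went from 2.20 ± 0.913 (SD, n = 5) to 3.64 ± 0.835 (SD, n = 4) in females, a log2 fold change of 0.75 (SE 0.28) that missed an FDR of 0.05. In males it went from 0.620 ± 0.131 (SD, n = 4) to 8.60 ± 1.74 (SD, n = 4), a 13.7-fold difference with a log2 fold change of 3.77 (SE 0.24). The difference of the 2 age effects, females minus males, was -3.02 (SE 0.41) on the log2 scale and was called at an FDR of 0.05, as were 3.92% of all genes tested for it. It was called in all 17 refits that each left out 1 mouse. Blnk was chosen with its values in these groups known, so the call and the refits are a description only.

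Promoters of Fcrla, Cd79a, Cd22, Cd37, Pou2af1 and Blnk were searched for the octamer ATTTGCAT, the site of octamer-binding factors, on both strands (reverse complement ATGCAAAT). The window ran from 250 bases before to 50 bases after the RefSeq start on GRCm38.p6. Cd79b, Ms4a1 and Mzb1 were not searched. Only exact matches were sought. Blnk alone among these 6 held one, and 1.74% of all 32851 windows of that length did. It is printed because Blnk is the gene whose course in males stands apart, with the octamer in capitals, at chr19:40994333-40994362 on the minus strand. The 250 bases before the start of Pou2af1, at chr9:51213440-51213689 on the plus strand, are printed beside it as a promoter without an exact match. The protein of Pou2af1 works with the octamer factors, and the course of the gene is that of the other genes. Its printed stretch holds gtgcaaat, which differs from ATGCAAAT in the first base only. The stretch of Blnk covers positions -141 to -112 relative to its RefSeq start and lies within an exon of another transcript model of the gene. These matches describe letters in a window and say nothing of binding.
Blnk: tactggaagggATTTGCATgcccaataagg
Pou2af1: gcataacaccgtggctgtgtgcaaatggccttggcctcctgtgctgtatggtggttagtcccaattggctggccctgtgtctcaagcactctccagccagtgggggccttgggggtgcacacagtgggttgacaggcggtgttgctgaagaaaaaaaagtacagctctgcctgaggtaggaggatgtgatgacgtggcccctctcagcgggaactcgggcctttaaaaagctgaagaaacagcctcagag

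Ms4a1 (ENSMUSG00000024673.9, chr19:11249675-11266241, minus strand) encodes CD20, a surface protein of mature B cells that plasma cells lose. Young vehicle livers gave a CPM of 0.172, 0.196, 0.254, 0.668 and 0.675 in females and 0.0602, 0.284, 0.326 and 0.408 in males, the lowest of these from 1 count. Old vehicle livers gave 1.08, 1.43, 2.69 and 2.77 in females and 0.848, 0.918, 1.10 and 1.62 in males. Both old groups lay clear of the young ones, with a wider relative gap in males. The log2 fold changes were 2.32 (SE 0.43) in females, with means of 0.393 ± 0.256 (SD, n = 5) and 1.99 ± 0.860 (SD, n = 4), and 2.00 (SE 0.44) in males, with 0.270 ± 0.149 (SD, n = 4) and 1.12 ± 0.350 (SD, n = 4).

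Cd22 (ENSMUSG00000030577.14, chr7:30865402-30880342, minus strand) encodes a sialic acid-binding lectin that restrains receptor signalling. Among young vehicle mice its CPM was 0.589, 1.09, 1.19, 1.33 and 1.44 in females and 0.602, 0.652, 0.739 and 1.23 in males. Among old vehicle mice it was 2.45, 4.08, 4.83 and 5.25 in females and 2.12, 2.38, 3.27 and 4.66 in males. The log2 fold changes were 1.90 (SE 0.27) in females and 1.93 (SE 0.34) in males. By log2(FPKM + 0.1) in the same mice they were 1.68 and 0.97, with overlap in males. Female means were 1.13 ± 0.329 (SD, n = 5) and 4.15 ± 1.24 (SD, n = 4), and male means 0.804 ± 0.286 (SD, n = 4) and 3.11 ± 1.15 (SD, n = 4). An antisense gene model shares 479 of the 5042 exonic bases of Cd22, and whether counting used the strand is not stated.

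Cd37 (ENSMUSG00000030798.15, chr7:45233632-45239115, minus strand) encodes a tetraspanin found on B cells and, at lower levels, on other leukocytes. Females had 2.55, 3.43, 3.53, 3.54 and 3.62 CPM when young and 7.15, 7.54, 10.7 and 11.2 when old, both with vehicle. Males had 1.25, 1.63, 2.18 and 2.73 when young and 3.98, 4.29, 5.22 and 5.39 when old. It had the smallest called fold change with age in either sex. That was 1.48 (SE 0.17) on the log2 scale in females, whose mean went from 3.33 ± 0.442 (SD, n = 5) to 9.14 ± 2.09 (SD, n = 4). It was 1.28 (SE 0.25) in males, whose mean went from 1.95 ± 0.646 (SD, n = 4) to 4.72 ± 0.692 (SD, n = 4).

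Pou2af1 (ENSMUSG00000032053.8, chr9:51213708-51240080, plus strand) encodes the coactivator OBF-1 of B and plasma cells. Its CPM was 0.147, 0.172, 0.444, 0.519 and 0.565 in young and 1.06, 1.65, 1.94 and 2.42 in old vehicle females. In males it was 0.163, 0.181, 0.284 and 0.318 in the young and 0.530, 0.754, 0.975 and 1.36 in the old, again without overlap. In females the log2 fold change was 2.27 (SE 0.38), from 0.370 ± 0.197 (SD, n = 5) to 1.77 ± 0.568 (SD, n = 4). In males the gene did not pass the filter on low counts and was not fitted, and its means were 0.236 ± 0.0761 (SD, n = 4) and 0.905 ± 0.354 (SD, n = 4).

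Fcrla (ENSMUSG00000038421.13, chr1:170917576-170927583, minus strand) encodes an Fc receptor-like protein kept inside B cells. It had the fewest counts of the 7, between 0 and 24 in a mouse. Young vehicle females had 0, 0.260, 0.295, 0.308 and 0.318 CPM and old vehicle females 0.423, 0.612, 0.940 and 1.33. In young female 4 no read was counted, which at its depth allows up to 3 counts. Young vehicle males had 0.0602, 0.136, 0.171 and 0.326 and old vehicle males 0.424, 0.574, 0.580 and 0.994. Both pairs of groups were apart, but the gene passed the filter in neither comparison with age and has no fitted fold change there.

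Mzb1 (ENSMUSG00000024353.5, chr18:35647267-35649367, minus strand), the plasma cell chaperone, showed no separation by age in the counts. Young and old vehicle females had 0.359, 0.444, 0.467, 0.631 and 0.737 CPM and 0.283, 0.423, 0.492 and 0.774. Young and old vehicle males had 0.272, 0.284, 0.380 and 0.782 and 0.172, 0.471, 0.522 and 0.902. The ranges of all groups overlapped. The female log2 fold change was -0.10 (SE 0.36), and the gene was not fitted in males.

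The FPKM of Mzb1, which the authors computed with Cufflinks from the same reads, ordered the same mice differently. Values were 0.126, 0.361, 0.538, 0.539 and 0.700 in young and 1.13, 1.37, 1.97 and 2.60 in old vehicle females, without overlap. Young vehicle males had 0.142, 0.284, 0.358 and 0.935 and old vehicle males 0.875, 1.32, 1.35 and 1.82, with 1 young male above the lowest old one. On the scale of log2(FPKM + 0.1) old minus young was 1.81 in females and 1.61 in males, where the counts gave -0.10 in females. HDM201 females had 0.981, 1.27, 1.31, 1.34 and 1.62 and HDM201 males 1.89, 1.95, 2.00, 2.22 and 3.54. The HDM201 males lay above the 4 old vehicle males with counts, and old vehicle male 1, which has no counts, stood at 62.4. In the GENCODE M21 annotation 695 of the 1215 exonic bases of Mzb1, or 57.2%, also belong to a second gene model on the same strand. That model itself received 0 to 2 counts per mouse. How the counting treated reads in shared bases is not given in the sources used here, and the part of this overlap in the difference between the measures was not tested. Sums of FPKM ranged from 690769 to 6010507 per mouse. The 3 highest sums were those of young female 5, HDM201 female 1 and HDM201 male 5. A high sum did not go with another scale for Cd79a. It was 1.265 FPKM and 1.711 CPM in HDM201 male 5, and 1.728 FPKM and 2.575 CPM in HDM201 male 4. No other member lost its separation or gained one in females between counts and FPKM except Fcrla, whose female groups overlapped in FPKM. In males Cd22 and Pou2af1 also overlapped in FPKM.

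**Figure D2:**
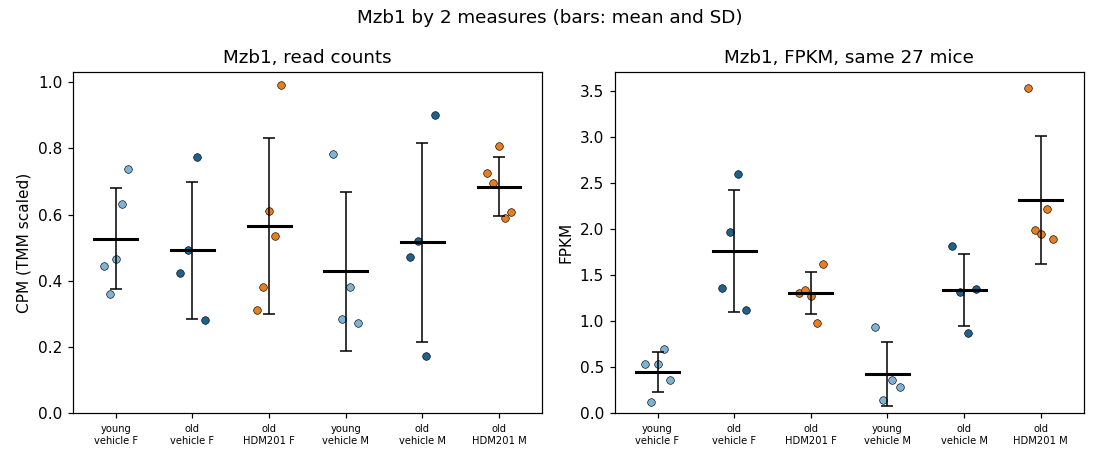
Mzb1 in the 27 mice with counts, as TMM-scaled CPM on the left and as FPKM on the right, 1 point per mouse with the group mean and SD. Counts overlap between all groups, whereas FPKM of old vehicle females lie between 1.13 and 2.60, above the young females at 0.126 to 0.700.

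Levels between genes were compared as CPM per kilobase of exonic sequence (RPKM, from the union of GENCODE exons). In old vehicle females Cd79a, Cd37 and Cd79b led, at 2.72 ± 1.23, 2.59 ± 0.593 and 2.39 ± 0.305 RPKM (SD, n = 4), with ranges that overlapped. Cd22, Pou2af1, Blnk, Fcrla, Mzb1 and Ms4a1 followed, from 0.824 ± 0.245 down to 0.322 ± 0.139, with overlapping ranges between neighbours. In old vehicle males Blnk joined the leading genes at 1.44 ± 0.289, between Cd79b at 1.58 ± 0.509 and Cd37 at 1.34 ± 0.196. The lead of Cd79a at 1.88 ± 0.391 did not exceed the spread. FPKM gave another order. In old vehicle females Cd37 led alone at 5.025 to 6.926, above Cd79a at 1.206 to 4.01 and Cd79b at 2.332 to 3.299. In old vehicle males with counts Blnk had a mean FPKM of 3.66, against 2.816 for Cd37, 1.82 for Cd79a and 1.766 for Cd79b. The order of levels thus depends on the measure. The 2 receptor chains, which pair with each other in the cell, had overlapping RPKM in every group, for example 0.544 ± 0.154 and 0.552 ± 0.177 in young vehicle females.

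Read against all genes, 6 of the 8 members fitted were called higher in old vehicle females at an FDR under 0.05, as were 16.8% of all genes tested. Groups did not overlap for 7 of the 9, with the old mice higher, and for 12.5% of all genes tested. In males all 6 members fitted were called higher, against 2.76% of all genes, and 8 of the 9 did not overlap, against 7.33%. As the genes were chosen with these values known, nothing is read from the difference of these shares. In males 2 members were called without old vehicle male 4 or young vehicle male 3, and 3 without old vehicle male 2 or young vehicle male 1 or 4.

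**Figure D3:**
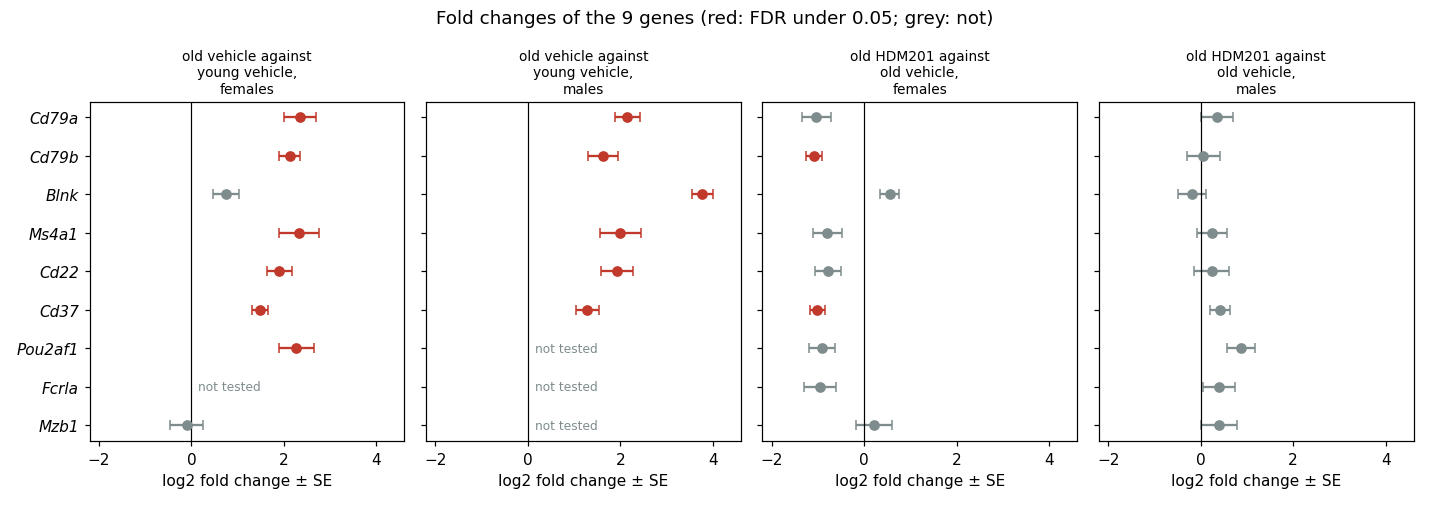
Log2 fold changes of the 9 genes with their standard errors in the 4 comparisons of 2 groups, in red where the FDR was under 0.05. With age 6 genes are called in each sex, and Blnk is called in males at 3.77, whereas it lies at 0.75 in females. With HDM201 only Cd79b and Cd37 in females are called.

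Other genes of the pathway, none of them a member, came to 67. They were taken from lists of receptor signalling genes, B cell identity genes, plasma cell genes and immunoglobulin constant genes. The lists were chosen with earlier results of these data known, so their calls are no independent test. In females 39 of the 57 that were tested rose with age and 0 fell (edgeR quasi-likelihood test, FDR under 0.05). Their median log2 fold change was 1.47, against 0.0094 over all genes tested. Of the signalling genes 16 of 24 rose, among them the kinase gene Blk at 2.15 (SE 0.33, FDR 0.000630). Among identity genes 10 of 15 rose. They include Pou2f2, which encodes an octamer-binding factor, at 2.67 (SE 0.34, FDR 0.000187), and Tnfrsf13b at 2.67 (SE 0.39, FDR 0.000407). The follicle-homing receptor gene Cxcr5 rose by 2.64 (SE 0.60, FDR 0.00555), or 2.02 without old vehicle female 3. Plasma cell genes rose for 6 of 10, with Jchain, the joining chain of secreted IgA and IgM, at 3.13 (SE 0.20, FDR 2.48e-06). The 6 include Sdc1, at 0.79, which was not rare in liver, at 45.35 to 120 FPKM in young vehicle males with counts. How much of its level came from plasma cells was not tested.

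The immunoglobulin constant genes, which tell the class of antibody made, had the highest median log2 fold change of the 4 lists in females, 3.33, and 7 of 8 rose. Igkc, the kappa light chain, was 3.34 ± 0.858 CPM in young (SD, n = 5) and 46.4 ± 4.98 in old vehicle females (SD, n = 4), a log2 fold change of 3.81 (SE 0.16, FDR 7.42e-08). Ighg1 and Ighg2c rose by 4.98 (SE 0.90, FDR 0.00157) and 4.03 (SE 0.67, FDR 0.000995), from 21 counts each over the young group, so their size rests on few reads. The log2 fold change of Ighg1 was 3.56 without old vehicle female 4 and that of Ighg2c 3.24 without old vehicle female 3, and both stayed called in each of 9 refits without 1 mouse. In males 17 of 52 genes tested rose and 0 fell, with a median of 1.22 against -0.015 over all genes. These were 6 of 24 signalling genes, 3 of 11 identity genes, 2 of 8 plasma cell genes and 6 of 9 constant genes. Cd72, a further inhibitory co-receptor gene, rose by 1.84 (SE 0.33, FDR 0.0194), Fcmr, the receptor for IgM, by 2.18 (SE 0.40, FDR 0.0204), Jchain by 2.77 (SE 0.28, FDR 0.00177) and Igkc by 4.38 (SE 0.41, FDR 0.00115). The count in males fell to between 4 and 10 without old vehicle male 2 or 4 or any 1 of the 4 young vehicle males, and it was 39 with all 6 groups in 1 fit. Of the 59 pathway genes tested for a sex difference in the age effect, 1 was called, Nfatc1, at 0.57 (SE 0.14, FDR 0.0371), females minus males. It was called in 5 of 17 refits without 1 mouse, and lost without old vehicle female 1, 3 or 4, old vehicle male 3, 4 or 5, young female 1, 4 or 5 or young male 2, 3 or 4.

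Markers of other leukocytes moved with the members, and their part in the results was not tested. Of the macrophage and Kupffer cell markers 11 of 12 rose with age in females and 4 of 12 in males. Their summed CPM was 328.8 to 485.4 in young and 535.7 to 1098 in old vehicle females, and 148.7 to 302.3 and 238.6 to 701.9 in males. All 5 markers of leukocytes in general rose in females and 2 of 5 in males, with sums of 31.2 to 40.7 and 70.0 to 112.9 in females and 17.6 to 28.5 and 31.0 to 81.7 in males. T cell markers rose for 4 of 12 tested in females and 1 of 9 in males. Markers of plasmacytoid dendritic cells, which share some B lineage genes, were too low to test, with sums from 0.0445 to 1.73 over all groups. Of the markers of lymphoid stroma Cxcl13 and Ltb rose in females, and Glycam1 was at 0 in counts and listed at 0 in FPKM in every mouse. Ccl19 and Ccl21a had 0 counts in all mice, in both gene entries that carry each symbol, but FPKM above 0 in every mouse, for example 0.630 to 2.24 and 0.0712 to 1.07 in old vehicle females, so their level is uncertain. The 8 hepatocyte markers summed to between 77300 and 159700 CPM in every mouse.

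HDM201 livers of females gave lower means than old vehicle livers for the 7 genes of the shared course. Cd79b was 1.31, 1.38, 1.60, 1.87 and 1.92 CPM in HDM201 females, below every old vehicle female and above every young one. Its mean was 1.62 ± 0.277 (SD, n = 5), and the log2 fold change -1.08 (SE 0.17). Cd37 was 3.87, 4.45, 4.47, 4.78 and 5.14, likewise between the 2 vehicle groups, with a mean of 4.54 ± 0.468 (SD, n = 5) and a log2 fold change of -1.01 (SE 0.15). These were the 2 members called lower of 9 fitted, against 2.90% of all genes, and the 2 without overlap, against 4.63%.

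For the other genes of the shared course 1 or more old vehicle females reached into the HDM201 range. Cd79a stood at 1.43, 1.80, 1.84, 2.29 and 2.37 with HDM201, and old vehicle female 4, at 1.60, lay among these values. Its log2 fold change was -1.03 (SE 0.31). Pou2af1 measured 0.624, 0.763, 0.816, 1.16 and 1.32 and differed by -0.92 (SE 0.29). Both were about as far from vehicle as the called genes, with wider errors. Fcrla read 0.327, 0.330, 0.449, 0.468 and 0.535, a difference of -0.95 (SE 0.35), Ms4a1 read 0.857, 0.872, 1.09, 1.25 and 1.65, a difference of -0.80 (SE 0.31), and Cd22 read 1.46, 1.64, 2.67, 2.73 and 3.47, a difference of -0.78 (SE 0.28). DESeq2 called 4 members lower on the same mice, Cd79a, Cd79b, Cd37 and Pou2af1, and with all 6 groups in 1 fit Cd37 alone was called.

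The remaining 2 genes had fold changes above 0 in counts, and neither was called. Blnk was 3.71, 4.84, 5.26, 5.59 and 7.17 in HDM201 females, with a mean of 5.31 ± 1.26 (SD, n = 5) above that of old vehicle females, and a log2 fold change of 0.55 (SE 0.21). Mzb1 was 0.312, 0.382, 0.535, 0.612 and 0.990, a difference of 0.22 (SE 0.39). By log2(FPKM + 0.1) the direction of Mzb1 turned, to -0.36, with overlap.

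HDM201 males overlapped old vehicle males in CPM for every member. Cd79a was 1.71, 2.58, 3.26, 3.28 and 6.70 and Cd79b 1.29, 1.78, 1.88, 2.30 and 4.52 with HDM201. Both maxima came from HDM201 male 1, which was also the highest of its group for Ms4a1, Cd22, Cd37 and Pou2af1. In Blnk a different mouse stood out, HDM201 male 4, in 5.13, 5.35, 5.39, 7.20 and 14.5. Ms4a1 was 0.698, 1.15, 1.28, 1.49 and 2.01, Cd22 1.71, 2.41, 3.37, 4.37 and 6.42 and Cd37 5.02, 5.15, 5.61, 5.98 and 9.71. HDM201 male 1 was thus the highest for the surface genes and not for Blnk. Its T cell markers summed to 65.0 CPM, against 20.2 to 30.5 in the other HDM201 males, and their part in its values was not tested. Pou2af1 was 1.34, 1.49, 1.50, 1.66 and 2.35, Fcrla 0.497, 0.751, 0.782, 1.02 and 1.21 and Mzb1 0.590, 0.607, 0.694, 0.726 and 0.806. Of the 9 log2 fold changes 8 were above 0, from 0.06 (SE 0.36) for Cd79b to 0.88 (SE 0.30) for Pou2af1, and that of Blnk was -0.18 (SE 0.31).

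No member was called in males by edgeR or by DESeq2, and edgeR called 0.00709% of all genes. The members were chosen with these values known, so this is a description only. None of the 9 was free of overlap, against 4.03% of all genes. The difference of the HDM201 effects, females minus males, was below 0 for 8 of the 9, from -1.79 (SE 0.42) for Pou2af1 to -0.18 (SE 0.57) for Mzb1, and 0.74 (SE 0.40) for Blnk. Cd37 alone was called, at -1.43 (SE 0.27), where 0.107% of all genes were. Its values in these groups were known when it was chosen. That call was lost in 12 of 18 refits without 1 mouse, namely old vehicle female 1, 2 or 4, any HDM201 female, old vehicle male 4 or 5 or HDM201 male 1 or 5.

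Among the pathway genes 10 of 58 fell and 2 rose with HDM201 in females (edgeR FDR under 0.05), with a median log2 fold change of -0.55 against 0.001 over all genes, of which 2.35% were called higher. Signalling genes accounted for 8 of the falls, among them Cd72 at -1.24 (SE 0.17, FDR 0.00688) and Rac2, a GTPase of blood cells, at -1.06 (SE 0.17, FDR 0.00987). Of identity genes Pou2f2 fell by 1.69 (SE 0.32, FDR 0.0163) and Ciita, the master regulator of MHC class II genes, by 1.05 (SE 0.22, FDR 0.0247). The call of Pou2f2 was lost without old vehicle female 2 or 4, and that of Ciita without old vehicle female 1 or 2 or HDM201 female 4. Ralgps2 rose by 0.50 (SE 0.08, FDR 0.00987), as did the signalling adaptor gene Pik3ap1, by 0.66 (SE 0.12, FDR 0.0110), which is named after its value was seen. None of the 10 plasma cell genes and 9 constant genes tested was called by edgeR. Of them 1 and 3 had an unadjusted p under 0.05, all lower. Over all 14445 genes tested 1660 were lower and 1587 higher at that threshold. Without old vehicle female 2 the falls and rises came to 7, and DESeq2 called 20. Macrophage and Kupffer cell markers fell for 11 of 12 in the same comparison, with a summed CPM of 328 to 531.9 under HDM201, and leukocyte markers for 5 of 5, with 44.7 to 55.6. T cell markers fell for 0 of 14 tested by edgeR, with 5 at an unadjusted p under 0.05.

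In males 0 of 59 pathway genes were called by edgeR and 2 by DESeq2. By edgeR 11 had an unadjusted p under 0.05, all higher with HDM201. Over all 14109 genes tested 816 were higher and 894 lower at that threshold. The summed CPM of the immunoglobulin constant genes was 342.1 to 768.4 in HDM201 males and 125.7 to 262.7 in the 4 old vehicle males with counts, without overlap. Old vehicle male 1, without counts, goes the other way by FPKM, at 975.9 for Igkc and 266.8 for Ighm, where HDM201 males had 379 to 928.9 and 63.0 to 206.8. In females the sums were 79.3 to 228.3 with HDM201 and 174.1 to 239 with vehicle. The interaction of sex and HDM201 was called for 0 of 63 pathway genes by edgeR and for 13 by DESeq2. By edgeR 32 had an unadjusted p under 0.05, all lower in females than in males. Over all 14974 genes tested 1447 were lower and 1327 higher at that threshold.

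Mouse-to-mouse variation within groups gave a second view of which members go together. After each group mean was subtracted from log2(CPM + 1), the 7 genes of the shared course had pairwise Pearson r from 0.11 to 0.77, with a median of 0.55 over 21 pairs and 27 mice. Ms4a1 with Pou2af1 and Cd79b with Cd37 were the closest pairs. Blnk had r from -0.275 to 0.074 with the 7, with a median of 0.007, and Mzb1 from -0.041 to 0.29, with a median of 0.079. Over all mice, group differences included, the medians were 0.87, 0.61 and 0.20. Mzb1 had 3 to 21 counts in a mouse, and its FPKM ordered the mice differently, so its r describes the counts only. The members were selected on their CPM, points share libraries and low counts, and no p is attached.

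**Figure D4:**
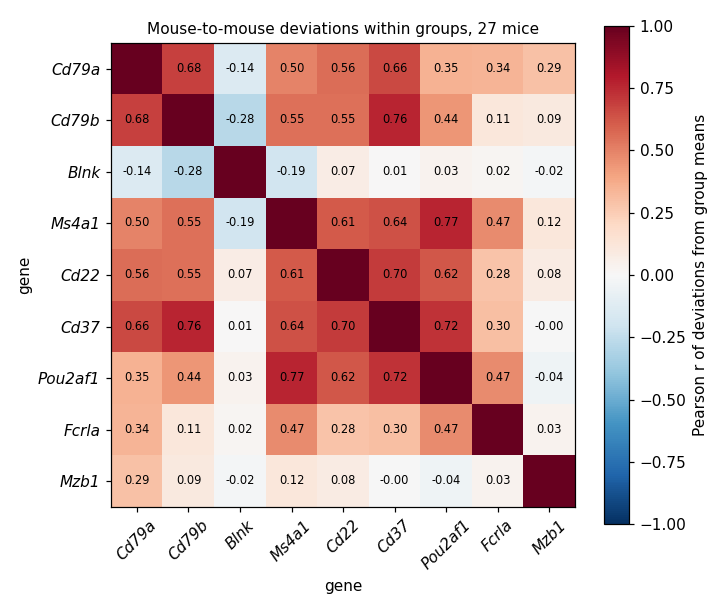
Pearson r between members of their deviations from group means in log2(CPM + 1), over 27 mice, on a scale from -1 to 1. The 7 genes from Cd79a to Fcrla other than Blnk are all positive with each other, from 0.11 to 0.77, whereas Blnk ranges from -0.275 to 0.074 with them and Mzb1 from -0.041 to 0.29. FPKM, which ordered the mice differently for Mzb1, is not shown.

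The genes whose profile over the 27 mice was most like the mean of the members were Ifi208 (r = 0.918), Tnfrsf13b (0.913), H2-DMb2 (0.902), Jchain (0.898), Snn (0.897), P2ry10 (0.896), Igkc (0.891), Gm15446 (0.888), Atp2a3 (0.885) and Napsa (0.884). When deviations from group means were used, 2 of these 10 stayed among the first 10. Blnk had other neighbours, named after its course was seen, with Ifi27l2b (r = 0.927), Cd63 (0.881) and Olfr1030 (0.877) first. Ifi27l2b stood at 5.55 CPM in young and 11.0 in old vehicle females and at 1.63 in young and 29.5 in old vehicle males, the same turn of the sexes as in Blnk.

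The 2 mice without counts were not used to choose the members. In old vehicle male 1 the FPKM of all 9 exceeded that of every other mouse. Cd79a stood at 42.5 and Cd79b at 43.5, where the other 4 old vehicle males had 1.34 to 2.24 and 1.39 to 2.35. Cd37 reached 67.4 against 2.43 to 3.24, and Mzb1 62.4 against 0.875 to 1.82. Relative to the mean of these 4 males the smallest ratio was that of Blnk, 4.14, from an FPKM of 15.2. The highest ratios were those of Ms4a1, 87.3, and Pou2af1, 83.0, and the median was 25.5.

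In the same mouse 18 of 19 B cell identity genes exceeded the 4 males, with a median ratio of 19.7, and 25 of 25 receptor signalling genes, with a median of 4.48. Plasma cell genes did so for 9 of 11 (median ratio 2.89) and immunoglobulin constant genes for 9 of 12 (3.98). Other cell types were also higher, T cell markers for 19 of 20 (3.70), macrophage and Kupffer cell markers for 11 of 12 (4.31) and leukocyte markers for 5 of 5 (8.54). Hepatocyte markers were above the others for 1 of 8, with a median ratio of 0.635. Its sum of FPKM, 741496, lay within the 703630 to 843180 of the other old vehicle males. This is 1 mouse with no test, and why it has no counts is not given in the sources used here. Young vehicle male 5 lay within or near the range of the other young males for most members, but had 4.10 FPKM of Cd37 against 1.04 to 2.19 and 1.61 of Mzb1 against 0.142 to 0.935.

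**Figure D5:**
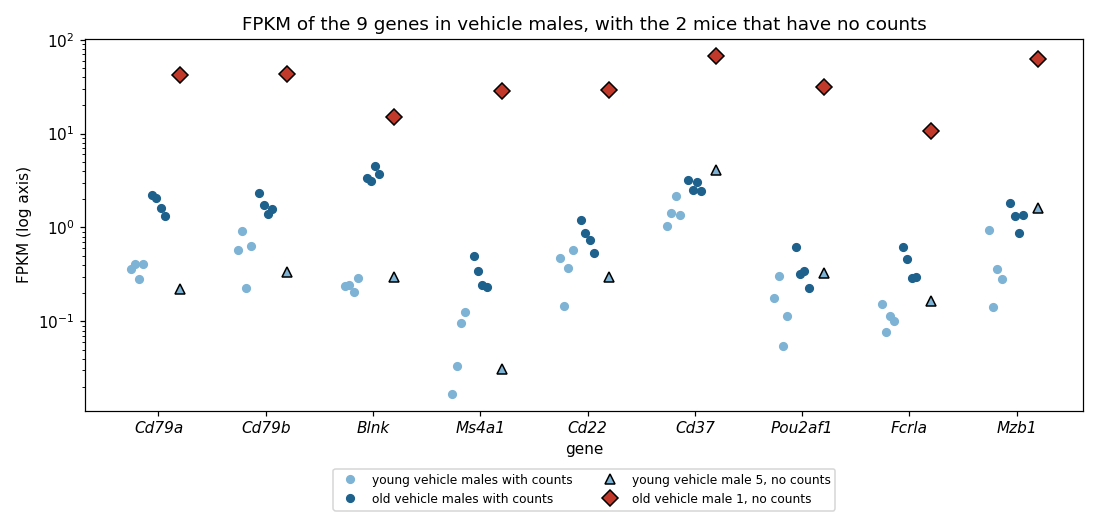
FPKM of the 9 genes in vehicle males on a log axis, with circles for mice that have counts, a diamond for old vehicle male 1 and a triangle for the young vehicle male numbered 5. The diamond lies above all other points for each gene, from 10.6 for Fcrla to 67.4 for Cd37.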

How the data were processed

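RNA-seq of whole liver covered 29 mice in 6 groups by sex, age and treatment. Reads were aligned by the authors with STAR (2-pass) against mm10 and filtered with SAMtools, and the authors deposited HTSeq read counts per gene, without normalization, for 27 mice. The authors also deposited FPKM values from Cufflinks for all 29, whose empty cells (61.7%) were read as 0. Tool versions and the use of strand are not given in the sources used here. Counts were 16485900 to 23570458 per mouse, so a gene at 0 can hold up to 3 counts. This limit covers counting error only.

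With edgeR 4.0.16 in R 4.3.3, the quasi-likelihood F test was run over the whole table for each comparison, with only its own groups in the fit, after filterByExpr (minimum count 10, minimum total 15) and TMM. Genes were called at a Benjamini-Hochberg FDR under 0.05 over all genes tested. Standard errors came from the F statistic. The scripts were tested on simulated counts. Members and lists were chosen with earlier results of these data known, and p-values measure the spread between mice. Named pathway genes are the called genes with the 3 largest absolute log2 fold changes per list, some of which are not reported here. The 10 genes most alike were ranked by Pearson r on log2(CPM + 1). Profiles of list genes with several entries used the first. Of the 55421 genes 54587 match GENCODE M21 by ID and version, from which positions and exons were taken. Alternatives were RLE size factors, DESeq2 1.42.0, no filter, a joint fit of the 6 groups, replicate numbers as a block, leaving out each mouse, an FDR under 0.01, a pseudocount of 0.1 and FPKM. FPKM of the males with counts alone was added after seeing the data. Protein sequences were not used here.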

Additional observations from a re-analysis of the deposited data

Results flagged for a closer look

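In 5 cases a single mouse stood far from the rest of its group (gap to the nearest mouse over the group's range above Dixon's 95% critical value, 54 groups examined, of which chance flags about 1 in 20). Blnk was 14.5 CPM in HDM201 male 4, with the others at 5.13 to 7.20. Cd79b was 3.35 CPM in old vehicle male 2, with the others at 1.78 to 2.03. Cd37 was 2.55 CPM in young female 5, below the others at 3.43 to 3.61, and 9.71 CPM in HDM201 male 1, above the others at 5.02 to 5.98. Fcrla was at 0 CPM in young female 4, with the others at 0.260 to 0.317.

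The test of the interaction called a difference between the sexes in the effects on 3 genes (edgeR, FDR under 0.05). As the old males were older than the old females, sex and that gap cannot be told apart. The difference of the age effects, females minus males, was -3.02 for Blnk and 0.57 for Nfatc1 on the log2 scale. The difference of the HDM201 effects was -1.43 for Cd37. When each mouse was left out, Blnk stayed called in 17 of 17 refits, Nfatc1 in 5 of 17 and Cd37 in 6 of 18. Blnk and Cd37 were chosen with their values in these groups known.

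Old vehicle male 1, which entered no comparison of counts, had FPKM far above those of all vehicle-treated young males. Its FPKM was 15.2 for Blnk (young males 0.206 to 0.300), 42.5 for Cd79a (0.223 to 0.406), 43.5 for Cd79b (0.227 to 0.910), 28.8 for Ms4a1 (0.0170 to 0.127) and 29.1 for Cd22 (0.146 to 0.571). It was 67.4 for Cd37 (1.04 to 4.10), 31.3 for Pou2af1 (0.0550 to 0.328), 62.4 for Mzb1 (0.142 to 1.61) and 10.6 for Fcrla (0.0775 to 0.166).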

How the results depend on the processing

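No called direction reversed under the alternatives run, and RLE size factors moved no count by more than 1.5 times. With age in females the pathway calls stayed at 36 to 39 and the members' calls at 6 to 7 when each mouse was left out. With age in males DESeq2 called 27 pathway genes, all 6 groups in one fit 39 and an FDR under 0.01 left 4, with 2 members, and leaving out 1 mouse gave 4 to 18 pathway genes and 2 to 7 members. With HDM201 in females DESeq2 called 20 pathway genes and 4 members, all 6 groups in one fit 7 and 1, an FDR under 0.01 left 6 pathway genes, and leaving out 1 mouse gave 7 to 16 (7 without old vehicle female 2) and 2 to 3. With HDM201 in males DESeq2 and the fit without a filter called 2 pathway genes each, and leaving out 1 mouse gave 0 of either kind. For the interaction with age DESeq2 called 3 pathway genes, the fit without a filter 2, all 6 groups 2 and an FDR under 0.01 0, and leaving out 1 mouse gave 0 to 3, with 1 member each time. For the interaction with HDM201 DESeq2 called 13 pathway genes and 2 members, the fit without a filter 4 pathway genes and an FDR under 0.01 0 members, and leaving out 1 mouse gave 0 to 6 and 0 to 2. The causes of these changes were not tested.

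The replicate numbers did not pair the mice (correlations of deviations from -0.222 to 0.222). With the replicate number as a block 4 pathway genes and 1 member were called with age in males, 0 pathway genes in the interaction with age and 0 members in that with HDM201, and no other count moved by over 1.5 times.

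By FPKM with all mice the members' log2 fold changes with age moved beyond the spread between mice for Mzb1 in females (1.81) and, in males, for Cd79a (3.03), Cd79b (2.55) and Ms4a1 (2.65). The males there include old vehicle male 1, at 42.5, 43.5 and 28.8 FPKM for Cd79a, Cd79b and Ms4a1. Over the males with counts alone Cd79a was 2.03, Cd79b 1.53, Ms4a1 1.36, Cd22 0.97 and Cd37 0.90. The fits on counts gave 2.15, 1.62, 2.00, 1.93 and 1.28 in that order. Among the 10 genes most like the members 2 were shared when deviations from group means were used. At 0 to 271 counts per mouse the depth limits every value of these genes.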

Other observations

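All 5 HDM201 males exceeded the 4 old vehicle males with counts in the summed CPM of immunoglobulin constant genes, with 342.1, 438.8, 443, 478.3 and 768.4. Jchain was 26.8 ± 14.0 CPM (SD, n = 5) in HDM201 males and 9.36 ± 3.00 (SD, n = 4) in old vehicle males without overlap, with a log2 fold change of 1.52 (SE 0.34, edgeR FDR 0.196), and Igkc 143.9 ± 51.5 and 54.8 ± 21.1, with 1.40 (SE 0.29, edgeR FDR 0.196). Prdm1, which drives plasma cell differentiation, differed by 1.31 (SE 0.34, edgeR FDR 0.244), also without overlap. It had 40 counts over the 4 old vehicle males with counts. Jchain, Igkc and Prdm1 were named after their values were seen. Only 7 of the 10 plasma cell genes tested here lay above 0, and edgeR called 0 of them. Half-way through their ranking the log2 value was 0.29. Groups were free of overlap for 4.03% of all genes, in either direction. Old vehicle male 1, without counts, had higher FPKM of Jchain (78.6) and Igkc (975.9) than every HDM201 male, and Prdm1 within their range.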
